A study of Mus musculus with 4 samples.

Results

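The 7 heme and iron handling genes described here are Hmox1, Spic, Fth1, Ftl1, Slc40a1, Cd163 and Blvrb. They were taken by symbol from the 21739 mouse gene symbols of the deposited matrices, and each of the 4 matrices listed all 7. On mouse build GRCm38 they lie at chr8:75093621-75100589 (Hmox1, plus strand), chr10:88674772-88685015 (Spic, minus strand), chr19:9980598-9985098 (Fth1, plus strand), chr7:45457944-45459884 (Ftl1, minus strand), chr1:45908068-45926523 (Slc40a1, minus strand), chr6:124304656-124330527 (Cd163, plus strand) and chr7:27447978-27466144 (Blvrb, plus strand). Macrophages that take up hemoglobin or dying red cells break heme down, store the released iron in ferritin and return it to the plasma through the exporter ferroportin. In wounded skin, bleeding brings hemoglobin and iron to such cells, and neutrophils take part in withholding iron from microbes. Heme oxygenase 1 and the ferritins are also well-known targets of Nrf2, a transcription factor of the oxidative stress response.

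Droplet 3′ single-cell RNA sequencing had been performed on periwound skin from C57/BL6j mice aged 6 weeks, on day 7 after punch wounds of 8 mm. In the hucMSC-Exosomes group (2 libraries, 1 mouse each), 100 µg of exosomes from human umbilical cord mesenchymal stem cells were injected under the skin at 4 sites every 48 h, and in the control group (2 libraries, 1 mouse each) an equal volume of phosphate-buffered saline. Group and replicate follow the sample titles, which pair the libraries in another way than the letters of the matrix names do. The paper reports many more neutrophils in the hucMSC-Exosomes group than in the control group. By title, neutrophil-like cells (described below) numbered 56 and 347 in the control and 93 and 542 in the hucMSC-Exosomes libraries. Replicate 1 was thus low and replicate 2 high in both groups. Which pairing is right was not tested, and comparisons of the groups depend on it. A tissue field of the labels names the gut, whereas their other fields name skin. Per-library values are given in the order Control 1, Control 2, hucMSC-Exo 1 and hucMSC-Exo 2 unless libraries are named. The deposited matrices, whose kept cells are the basis of all shares given here, held 1098, 2422, 1539 and 2119 cells with 6657095, 16950639, 8198377 and 10270615 unique molecular identifiers (UMIs). The paper counts far more cells in each of its samples, so shares of UMIs given here describe the deposited cells and not whole skin. Leaving out cells with under 200 or over 3000 genes found, or with over 10% of UMIs from mitochondria, kept 952, 2074, 1416 and 2001 cells, with a median of 4262.5, 4392.5, 3747 and 3752 UMIs. In all, 6 cell barcodes were shared by a pair of libraries.

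Cells were clustered without the 7 genes and without the other genes of 6 heme, iron and stress lists, 51 genes in all, so that none of these defined a class. A level in CPM is a gene's UMI count in all cells of a class and library, divided by their total UMIs and multiplied by 1e6. The macrophage-like class (139, 108, 40 and 97 cells, median 7130.5 UMIs) was led by Ccl8, Ccl12, Igf1 and the C1q genes, with the stress-induced cytokine gene Gdf15 also among its leading genes. The monocyte-like class (31, 92, 37 and 161 cells, median 6487 UMIs) was led by Chil3, Plac8, Vcan and Ly6c2, and the neutrophil-like class (56, 347, 93 and 542 cells, median 2097 UMIs) by S100a9 and S100a8. All 12 macrophage markers were found in the macrophage-like class of each library, with Apoe the most abundant, and summed to 30179.5, 32148, 35273 and 38904 CPM. The same markers summed to 3146, 3119.7, 4238 and 3547 CPM in monocyte-like cells and to 899.9, 604, 888 and 625 CPM in neutrophil-like cells.

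A further cluster of 28, 346, 211 and 154 cells (median 7368 UMIs) had Pdpn, Mmp19, Ctsl and Pf4 among its leading genes, and its macrophage markers summed to 28851, 16193, 12775 and 15098 CPM. Its marker score was 1.89 for osteoclast-like macrophages and 1.83 for macrophages. The osteoclast protease gene Ctsk reached 15.1, 33.4, 17.6 and 47.4 CPM in it, a range overlapping that of macrophage-like cells (12.7 to 24.7 CPM), so it is called the Pdpn/Mmp19 cluster here. When cells with more than 3000 genes were kept and clustered too, the class with the highest osteoclast-like score held other cells, 178 of 215 of them above that limit, with Ctsk at 7058, 4625, 5719 and 4328 CPM. Of the 739 cells of the Pdpn/Mmp19 cluster, 455 then fell into the monocyte-like class and 262 into the macrophage-like class. The boundary of this cluster against both neighbours therefore depended on the limit on detected genes.

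Control 1 stood apart from the other libraries. Over all its kept cells Hmox1 reached 179.9 CPM, against 1159, 1527 and 667 CPM in Control 2, hucMSC-Exo 1 and hucMSC-Exo 2, and it held 28 cells of the Pdpn/Mmp19 cluster. Calls and orders of classes that changed without Control 1 are given both ways. Its low Hmox1 was part of what set this library apart, so orders of classes without it are descriptions only. Red cell RNA was at or near the detection limit, since kept cells held 3, 2, 3 and 2 UMIs of Hba-a1 and no UMI of Hba-a2 or Alas2. The part of free RNA in the levels below was read from T, NK and innate lymphoid cell-like cells (3161 cells, median 3978 UMIs), called lymphoid cells here.

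Cd163, the scavenger receptor for hemoglobin bound to haptoglobin, was found mainly in macrophage-like cells. It reached 48.5, 70.1, 84.6 and 86.5 CPM there, so all 4 libraries lay above every level in the other classes. These cells held 78.2% of all Cd163 UMIs. Within the class, the 5 highest cells of each library held 78.4, 74.5, 100 and 70.2% of its Cd163 UMIs. A Cd163 UMI was found in 12.2% of macrophage-like cells (median 7130.5 UMIs) and in 0.0316% of lymphoid cells (median 3978 UMIs). After drawing 1000 UMIs from each cell, which left out 1 shallower macrophage-like cell and 35 lymphoid cells, the shares were 4.70% and 0.0320%. In the Pdpn/Mmp19 cluster Cd163 reached 0, 1.11, 0 and 26.3 CPM, and the level of hucMSC-Exo 2 rested on a cell with 22 of 25 UMIs. In dendritic cell-like cells it reached 13.6, 4.73, 5.01 and 2.21 CPM. Monocyte-like cells held 2 Cd163 UMIs, so the pooled macrophage-like level was 66.1 times theirs, with a 95% counting interval of 18.0 to 549.8. Counting intervals given here rest on pooled UMIs and do not cover the spread over cells or mice. Neutrophil-like cells held 0 UMIs, and against the level that 3 UMIs over these cells would give, Cd163 was at least 51.7-fold higher in macrophage-like cells.

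Spic, a transcription factor induced by heme that is needed for the macrophages that recycle red cells, was highest in the Pdpn/Mmp19 cluster. It reached 3.77, 140.2, 169.8 and 139 CPM there and 10.5, 85.2, 21.2 and 31.9 CPM in macrophage-like cells, the level of Control 1 in the cluster resting on 1 UMI. Monocyte-like cells showed 0, 21.5, 5.23 and 17.4 CPM. The cluster lay above macrophage-like cells in 3 of 4 libraries and above monocyte-like cells in all 4, while the ranges of neighbouring classes overlapped. Without Control 1, the cluster (139 to 169.8 CPM) no longer overlapped with macrophage-like cells (21.2 to 85.2 CPM). The cluster did not lead with cells over 3000 genes kept, when means were 84.8 CPM in monocyte-like cells and 78.1 CPM in macrophage-like cells, both above the class in its place, nor with gates (101 CPM in the macrophage gate, 20.6 CPM in the osteoclast-like gate). In Control 1 macrophage-like cells held 11 Spic UMIs and the Pdpn/Mmp19 cluster 1. Pooled over libraries, the cluster, 11.5% of the kept cells, held 83.0% of all Spic UMIs. A Spic UMI was found in 28.8% of its cells (12.2% after drawing 1000 UMIs, 11 cells left out) and in 13.5% of macrophage-like cells (3.39%, 1 left out). None of the lymphoid or neutrophil-like cells held one at their depth. The medians of these 4 classes were 7368, 7130.5, 3978 and 2097 UMIs. Against the level of 3 UMIs over the neutrophil-like cells, Spic was at least 109.5-fold higher in the Pdpn/Mmp19 cluster and at least 28.6-fold higher in macrophage-like cells. Of the Spic-positive cells of the cluster, 1 of 1, 100 of 106, 71 of 71 and 34 of 35 also held a Hmox1 UMI. Over all its cells, 17 of 28, 307 of 346, 204 of 211 and 134 of 154 held one.

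Hmox1 encodes heme oxygenase 1, which opens the heme ring and releases iron, carbon monoxide and biliverdin. Its level was highest in the Pdpn/Mmp19 cluster, at 380.5, 3533, 5624 and 4063 CPM. Monocyte-like cells showed 186, 1689.6, 1469 and 1012 CPM, macrophage-like cells 642, 1047, 863 and 526 CPM, neutrophil-like cells 51.4, 563, 1414 and 405 CPM and dendritic cell-like cells 57.2, 619.6, 596 and 311 CPM. Control 1 was the lowest library in each of these classes but the macrophage-like class, where hucMSC-Exo 2 was lowest. In Control 1 the Pdpn/Mmp19 level also rested on few cells, since 66 of 101 UMIs came from 1 cell. By mean ± SD over libraries (n = 4 each), the order was 3400.2 ± 2200.1, 1089 ± 665, 769.7 ± 232, 608 ± 578 and 396 ± 266 CPM. The ranges of all neighbours in this order overlapped, but the Pdpn/Mmp19 cluster lay above monocyte-like cells in 4 of 4 libraries. Without Control 1, its range (3533 to 5624 CPM) cleared that of monocyte-like cells (1012 to 1689.6 CPM). Control 1 was set apart partly by its low Hmox1, so this separation is a description and no test. The order of means depended on the settings. With the highest doublet scores left out, monocyte-like cells reached 2840.3 CPM, close to the cluster at 2941 CPM, and at the finer clustering macrophage-like cells (1401 CPM) lay above monocyte-like cells (1135 CPM). With cells over 3000 genes kept, where the class in place of the cluster held other cells (282 CPM), monocyte-like cells were highest at 3027 CPM. With gates, macrophages (2026 CPM) and monocytes (2006 CPM) lay above the osteoclast-like gate (1749 CPM, 2 libraries).

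In Control 1 macrophage-like cells held 675 Hmox1 UMIs and the Pdpn/Mmp19 cluster 101. Pooled over libraries, the cluster held 74.1% of all Hmox1 UMIs. A Hmox1 UMI was found in 89.6% of its cells, 72.1% of macrophage-like cells, 63.2% of monocyte-like cells and 34.2% of neutrophil-like cells, against 3.04% of lymphoid cells (medians 7368, 7130.5, 6487, 2097 and 3978 UMIs). After drawing 1000 UMIs from each cell, these shares were 69.2%, 40.5%, 36.2%, 23.2% and 0.800%, with 11, 1, 9, 33 and 35 shallower cells left out. Pooled over libraries, all 4 myeloid classes thus stood far above the lymphoid level with 1000 UMIs drawn per cell. In Control 1, before drawing, a Hmox1 UMI was found in 17 of 28 cells of the cluster, 96 of 139 macrophage-like and 5 of 56 neutrophil-like cells. Neutrophil-like cells without a UMI of the C1q genes or of Ctsk, Acp5 and Atp6v0d2 showed 60.6, 580.5, 1368 and 418 CPM of Hmox1, close to the level of all neutrophil-like cells.

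Blvrb, biliverdin reductase B, acts after heme oxygenase and also reduces flavins. It was highest in the Pdpn/Mmp19 cluster, at 339, 299.8, 371 and 238 CPM, and in macrophage-like cells, at 308, 224, 292 and 272 CPM, and these ranges overlapped. Monocyte-like cells showed 105, 109, 88.8 and 76.6 CPM and neutrophil-like cells 34.3, 45.0, 62.2 and 19.6 CPM. Control 1 did not stand apart for this gene in these classes. Next by mean after macrophage-like cells came plasmacytoid dendritic cell-like cells (168 CPM, 3 libraries) and mast cell-like cells (152 CPM, 2 libraries at 66.6 and 237 CPM). Dendritic epidermal T cell-like cells, the resident γδ T cells of mouse epidermis, reached 101, 81.6, 103 and 98.8 CPM, whereas IL-17 γδ T cell-like cells showed 13.5, 13.6, 10.2 and 12.9 CPM and αβ T cell-like cells 14.8, 4.86, 7.86 and 5.96 CPM. A Blvrb UMI was found in 29.4% of dendritic epidermal T cell-like cells (median 3385 UMIs) and 3.27% of αβ T cell-like cells (median 4200 UMIs), and in 9.64% and 0.931% after drawing 1000 UMIs (4 and 11 cells left out). Among γδ T cells Blvrb thus separated the epidermal class from the IL-17 class in every library, which was described and not tested. In the Pdpn/Mmp19 cluster and in macrophage-like cells 69.8% and 67.2% of cells held a UMI, or 19.9% and 19.8% at 1000 UMIs (11 and 1 left out).

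**Figure D1:**
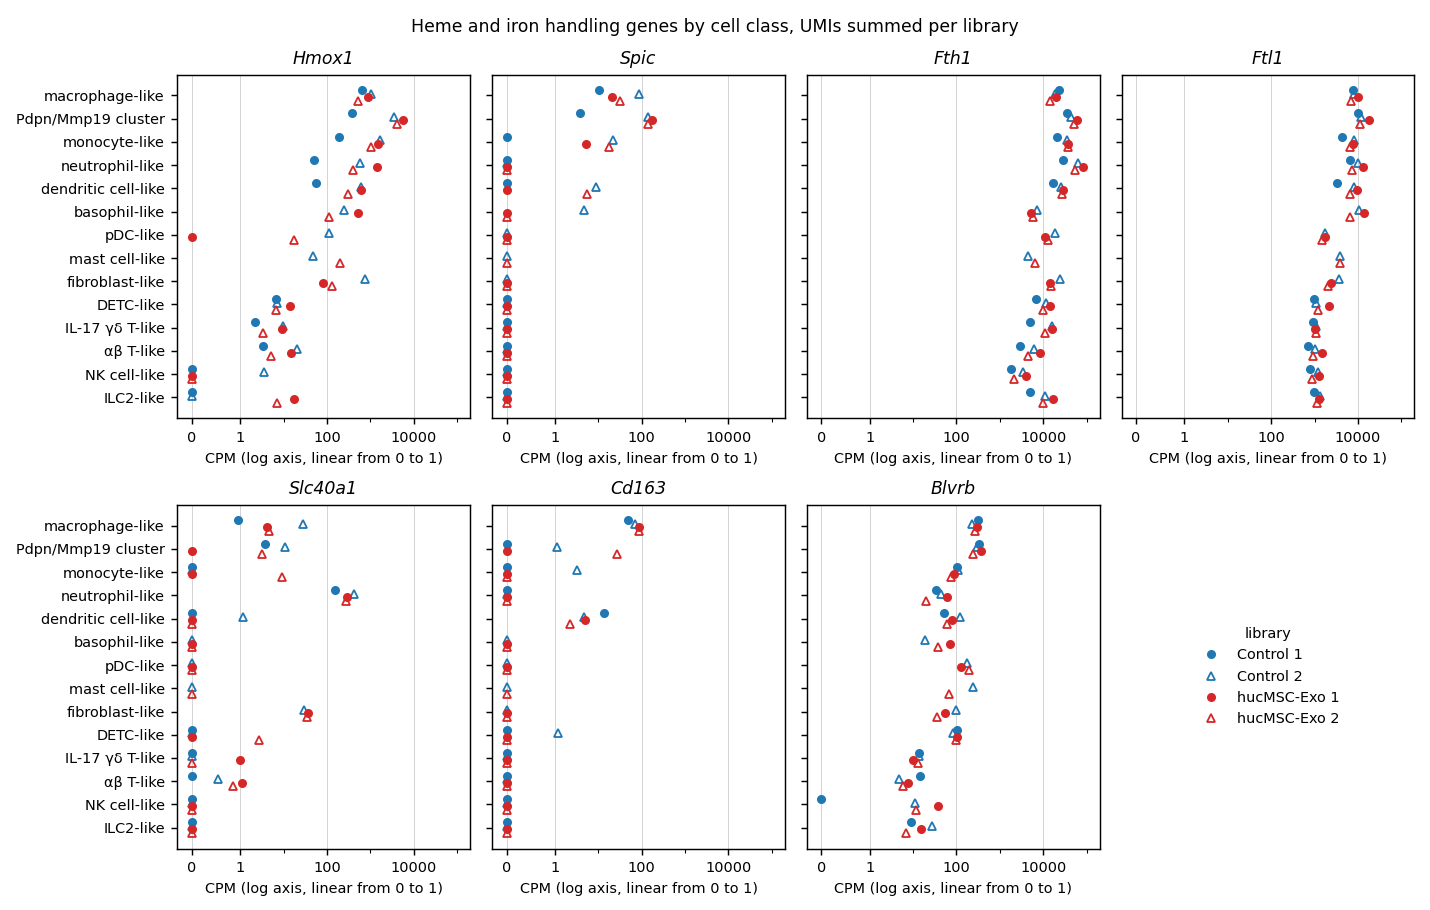
Level of each of the 7 genes (CPM, horizontal axis linear from 0 to 1 and logarithmic above) in each named cell class with at least 10 cells, 1 point per library: blue for the control group and red for the hucMSC-Exosomes group, filled circles for replicate 1 and open triangles for replicate 2. Cd163 stands out in macrophage-like cells, Slc40a1 in neutrophil-like cells, and Spic and Hmox1 in the Pdpn/Mmp19 cluster, where Control 1 lies lowest.

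Fth1 and Ftl1 encode the heavy and light chains of ferritin, the iron storage protein. Fth1 was highest in neutrophil-like cells, at 29321, 64671, 81055 and 54307 CPM, followed by the Pdpn/Mmp19 cluster at 36038, 43859.9, 59154 and 50278 CPM and monocyte-like cells at 21311, 34819, 37027 and 37809.5 CPM. Macrophage-like cells showed 23362, 18636, 19314 and 14337 CPM and lymphoid cells 5168, 9562, 13566 and 8493 CPM. Neutrophil-like cells lay above the Pdpn/Mmp19 cluster in 3 of 4 libraries, with Control 1 as the exception, and above macrophage-like cells in all 4. Ftl1 was highest in the Pdpn/Mmp19 cluster, at 10133, 11716, 18279.5 and 11122 CPM, and reached 6659.6, 10013, 13104 and 7369.8 CPM in neutrophil-like cells. Macrophage-like cells showed 7748, 8001, 10034 and 6958 CPM of Ftl1, monocyte-like cells 4275, 8271, 7745 and 6487 CPM and lymphoid cells 907, 1081, 1471 and 1039 CPM. The Fth1 ranges of neutrophil-like cells, the cluster and monocyte-like cells overlapped with all 4 libraries. Without Control 1, neutrophil-like cells (54307 to 81055 CPM) and the cluster (43859.9 to 59154 CPM) lay above monocyte-like cells (34819 to 37809.5 CPM). The Ftl1 range of the cluster lay above those of macrophage-like and monocyte-like cells and overlapped with that of neutrophil-like cells. With cells over 3000 genes kept, mean Ftl1 was 10924 CPM in monocyte-like and 9435 CPM in macrophage-like cells. Both lay above the class in place of the cluster, which held other cells (8073 CPM). Shares of positive cells do not separate classes here, because 99.4% of lymphoid cells held a Fth1 UMI. Both genes have near-identical copies elsewhere in the genome, and their counts are uncertain to that extent; the listed copy Ftl1-ps1 had 2452 UMIs in all kept cells, against 178962 of Ftl1.

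Together the ferritin chains made up 3.60, 7.47, 9.42 and 6.17% of all UMIs in neutrophil-like cells and 4.62, 5.56, 7.74 and 6.14% in the Pdpn/Mmp19 cluster. The ratio of Fth1 to Ftl1 UMIs differed between classes, read as a ratio between classes and not as a ratio of proteins. It was 3.02, 2.33, 1.92 and 2.06 in macrophage-like cells, 3.56, 3.74, 3.24 and 4.52 in the Pdpn/Mmp19 cluster, 4.98, 4.21, 4.78 and 5.83 in monocyte-like cells and 4.40, 6.46, 6.19 and 7.37 in neutrophil-like cells. Macrophage-like cells were lowest of these 4 in every library, and their range lay below that of each of the other 3. In IL-17 γδ T cell-like cells the ratio was 5.26, 14.2, 15.2 and 10.4, whereas basophil-like cells showed 0.674, 0.374 and 0.879 in Control 2, hucMSC-Exo 1 and hucMSC-Exo 2, the libraries with at least 10 of them. No other named class with at least 10 cells in a library fell below 1. The Ftl1 level of basophil-like cells, 10488, 13859 and 6541 CPM in these libraries, was within the range of the myeloid classes, and their Fth1 level was 7067, 5184 and 5749 CPM.

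**Figure D2:**
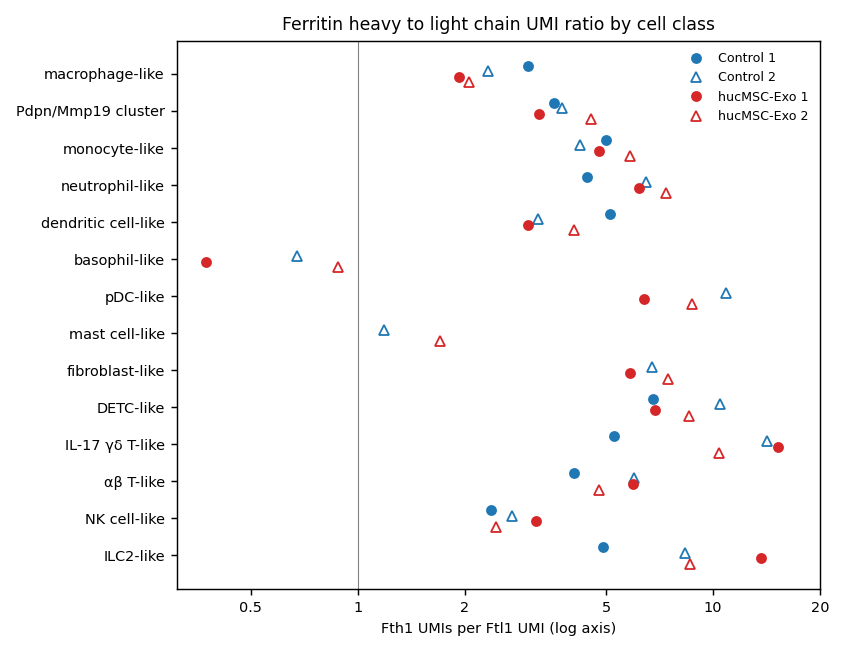
Number of Fth1 UMIs per Ftl1 UMI (logarithmic horizontal axis) in each cell class with at least 10 cells, 1 point per library, with colours and symbols by group and replicate as in the legend and a line at 1. Macrophage-like cells lie between 1.92 and 3.02, and basophil-like cells lie below 1.

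Slc40a1 encodes ferroportin, the known exporter of iron from mammalian cells. It was highest in neutrophil-like cells, at 154, 429, 283 and 271 CPM, and did not overlap with the next class, the fibroblast-like cells at 29.8, 36.6 and 35.0 CPM in Control 2, hucMSC-Exo 1 and hucMSC-Exo 2. Macrophage-like cells showed 0.951, 27.5, 4.23 and 4.55 CPM, the Pdpn/Mmp19 cluster 3.77, 10.8, 0 and 3.16 CPM and monocyte-like cells 0, 0, 0 and 9.19 CPM. Neutrophil-like cells held 89.6% of all Slc40a1 UMIs of the kept cells, of which only 51 were fibroblast-like. A UMI of it was found in 34.6% of neutrophil-like cells, 3.12% of macrophage-like cells and 0.190% of lymphoid cells, although neutrophil-like cells were the shallowest of these (medians 2097, 7130.5 and 3978 UMIs). At 1000 UMIs the shares were 23.1%, 1.04% and 0.0640%, with 33, 1 and 35 cells left out. Neutrophil-like cells without a UMI of the C1q genes or of Ctsk, Acp5 and Atp6v0d2 showed 131, 429.7, 276 and 281 CPM, which in Control 1 left 13 of 18 Slc40a1 UMIs.

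Gates on marker UMIs of each cell gave other boundaries. The macrophage gate, with UMIs of at least 2 C1q genes and none of Cd3e, Cd3g and S100a8, took in 809 cells, of which 33.7% were macrophage-like and 48.7% belonged to the Pdpn/Mmp19 cluster. Within it Hmox1 reached 469.6, 2501, 3382 and 1751 CPM, with 57.8, 76.4, 78.3 and 76.0% positive cells, and Spic 10.8, 123, 144 and 125 CPM, with 5.44, 27.4, 28.9 and 20.8% positive cells, against 3.04% and 0% of lymphoid cells. Both genes were lowest in Control 1. Cd163 reached 31.4, 22.2, 14.5 and 69.1 CPM in this gate (6.80, 4.72, 1.97 and 8.85% positive cells), Blvrb 296, 272, 341 and 231 CPM and Slc40a1 1.96, 12.0, 0.966 and 4.27 CPM. The ferritin chains reached 23010.5, 35504, 44342 and 28304 CPM (Fth1) and 8035, 10161, 15861 and 8248 CPM (Ftl1). The monocyte gate asked for UMIs of at least 2 of Ly6c2, Plac8, Chil3 and Ccr2, with fewer than 2 C1q genes. It (649 cells, 39.4% monocyte-like and 18.3% from the Pdpn/Mmp19 cluster) gave 202, 1780, 4455 and 1588 CPM of Hmox1, with 32.4, 53.0, 67.8 and 53.4% positive cells, and 0, 27.8, 77.6 and 6.66 CPM of Spic. For both genes hucMSC-Exo 1 was highest and Control 1 lowest in it. Its Fth1 level was 19114, 31346, 49697 and 36574 CPM.

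Macrophage-like cells were compared with monocyte-like cells by edgeR on the sums of the 4 libraries, with the library as a block. Cd163, Spic and Blvrb were higher in macrophage-like cells and Fth1 was lower. Of 6 members tested, 4 passed, where 31.6% of all 5544 genes tested did. Macrophage-like cells alone carried Cd163 through the low-count filter, which favours a difference, so its call is no independent result. Of 1514 genes that 1 class alone carried through, 639 passed. Leaving out every gene that 1 class alone carried through the filter, 3 of 5 members and 27.6% of 4030 genes passed, with a median log2 fold change of 0.25 and -0.09. Cd163 was higher in 4 of 4 libraries (log2 fold change 5.88, SE 0.55, edgeR adjusted p 2.0e-05), as were Spic (log2 fold change 1.48, SE 0.37, edgeR adjusted p 0.00958) and, with 2.72-fold, Blvrb (log2 fold change 1.44, SE 0.19, edgeR adjusted p 2.0e-04). Fth1 was lower in 3 of 4 libraries (log2 fold change -0.85, SE 0.19, edgeR adjusted p 0.00548). Ftl1 (log2 fold change 0.25, SE 0.13, edgeR adjusted p 0.179) and Hmox1 (log2 fold change -0.36, SE 0.35, edgeR adjusted p 0.476) did not pass. Over the alternatives Hmox1 ranged from -1.35 to 0.28 and Ftl1 from -0.23 to 0.39, so both directions turned, and Hmox1 passed at -0.90 without Control 1. Slc40a1 was not tested, because its counts were too low. The log2 fold change of Cd163 rests on 2 UMIs of monocyte-like cells, both in Control 2. Without Control 2, Cd163 was higher in macrophage-like cells by a log2 fold change of at least 4.91, against 3 UMIs over the monocyte-like cells, and without hucMSC-Exo 2 the ratio was 30.1, with a 95% counting interval of 8.16 to 252. Spic was too low for the test without Control 2 and without hucMSC-Exo 2, and reached 2.08 with gates. Its call ended with DESeq2, without the library block, without the 10% of cells with the highest doublet scores (log2 fold change 0.15) and with cells over 3000 genes kept (-0.10). The Fth1 call ended at a finer clustering (-0.35) and with gates (-0.09), and the Blvrb call with cells over 3000 genes kept (0.39), whereas Ftl1 passed with gates (0.35).

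The counts for lists of related genes also leave out genes that 1 class alone carried through the filter. Of all genes that remain 10.1% passed as higher and 17.5% as lower, against 15.8% and 15.8% of all 5544 genes tested. Of heme uptake, transport and breakdown, 3 of 5 genes were higher in macrophage-like than in monocyte-like cells and 0 were lower (median log2 fold change 0.55). Of the other lists' genes, those higher and lower (with the list's median) were 0 and 0 of 2 of iron uptake and transport (0.01), 0 and 1 of 4 of iron storage and export (-0.19), 0 and 1 of 2 of heme synthesis (-0.31) and 2 and 1 of 5 of iron and heme regulation (0.04). All 5 Nrf2 target genes that remain were lower (median -1.46, against -0.09 over all genes). The largest differences in the lists beside Cd163 were those of Hp, haptoglobin (-3.31), the cystine transporter Slc7a11 (-3.09), the iron regulator Hfe (2.01) and the sulfiredoxin gene Srxn1 (-1.96). Monocyte-like cells alone carried Hp and Srxn1 through the filter. Without Control 2 and without hucMSC-Exo 2, 1108 and 1029 genes passed in this comparison, in place of 1752.

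Against the Pdpn/Mmp19 cluster, macrophage-like cells were lower in Hmox1, Spic, Fth1 and Ftl1 and higher in Cd163. Of 6 members tested, 5 passed, where 27.2% of 6360 genes did. The filter favoured a difference in Cd163 here too, as macrophage-like cells alone carried it through. Of 1357 genes that 1 class alone carried through, 514 passed. Leaving out every gene that 1 class alone carried through the filter, 4 of 5 members and 24.3% of 5003 genes passed, with a median log2 fold change of -1.38 and -0.06. Fth1 was lower in 4 of 4 libraries (log2 fold change -1.38, SE 0.16, edgeR adjusted p 1.1e-04), as was Ftl1 (log2 fold change -0.68, SE 0.12, edgeR adjusted p 0.00108). Hmox1 (log2 fold change -1.84, SE 0.48, edgeR adjusted p 0.0130) and Spic (log2 fold change -1.50, SE 0.36, edgeR adjusted p 0.00786) were lower in 3 of 4 libraries, Control 1 being the exception. Cd163 was higher in 4 of 4 (log2 fold change 3.73, SE 0.63, edgeR adjusted p 9.9e-04). Blvrb did not pass (log2 fold change -0.23, SE 0.17, edgeR adjusted p 0.346), and Slc40a1 was not tested. The log2 fold change of Hmox1 was -2.55 without Control 1 and -1.15 at the finer clustering, and its call ended without hucMSC-Exo 1 (-1.45), without hucMSC-Exo 2 (-1.40) and with DESeq2. The Spic call ended without hucMSC-Exo 2 (-1.24) and at the finer clustering (-0.25), where 37.5% of the cluster's cells joined the macrophage-like class. Cd163 was 3.11 without Control 2 and 5.72 with DESeq2, and was not tested with gates. Without hucMSC-Exo 2 the cluster held 3 Cd163 UMIs, and the ratio was 90.6, with a 95% counting interval of 30.3 to 446. At the finer clustering and with cells over 3000 genes kept, the class compared held 0 Cd163 UMIs, and against 3 UMIs over its cells the level of macrophage-like cells was at least 56.4-fold and at least 61.5-fold higher. With those cells kept, Hmox1 (2.49), Spic (2.87), Fth1 (1.91) and Ftl1 (0.44) turned direction and Blvrb passed (1.72), but the class compared then held other cells. With gates, only Control 2 and hucMSC-Exo 1 had enough cells, 394 of the 809 cells of the macrophage gate and 21 of the 43 cells of the osteoclast-like gate came from the Pdpn/Mmp19 cluster, and the comparison gave 0.77 for Hmox1, 2.60 for Spic, 0.75 for Fth1 and -0.16 for Ftl1, with only Spic called.

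Over all 6360 genes tested, 13.6% passed as higher and 13.5% as lower in macrophage-like cells than in the Pdpn/Mmp19 cluster. Of all genes but those that 1 class alone carried through the filter, 10.2% passed as higher and 14.1% as lower. All 5 Nrf2 target genes among them were lower in macrophage-like cells than in the Pdpn/Mmp19 cluster (median log2 fold change -2.98, against -0.06 over all genes), and so were 3 of 5 genes of iron uptake and transport (median -0.83). Of the genes of heme uptake, transport and breakdown, 1 of 7 was higher and 2 lower (median -0.38). Of the other lists' genes, those higher and lower (with the list's median) were 0 and 2 of 5 of iron storage and export (-0.30), 0 and 1 of 1 of heme synthesis (-1.46) and 1 and 1 of 7 of iron and heme regulation (-0.20). The largest differences were those of Slc7a11 (-4.01), the glutathione synthesis gene Gclc (-3.77), Cd163, Srxn1 (-3.35) and thioredoxin reductase 1, Txnrd1 (-2.98), and the Pdpn/Mmp19 cluster alone carried Gclc through the filter. In the cluster Gclc reached 26.4, 257, 238 and 352 CPM and Srxn1 117, 544, 713 and 537 CPM. Control 1 was again lowest, as for Hmox1. Without Control 2 and without hucMSC-Exo 2, 1056 and 947 genes passed in this comparison, in place of 1728, and with gates and with cells over 3000 genes kept 506 and 3690.

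Against neutrophil-like cells, macrophage-like cells were lower in Slc40a1 and Fth1 and higher in Cd163 and Blvrb. Of 6 members tested, 4 passed, where 61% of 5711 genes did. For Cd163 and Slc40a1 the filter favoured a difference, since macrophage-like and neutrophil-like cells, respectively, carried them alone through it. Of 2477 genes that 1 class alone carried through, 1768 passed. Leaving out every gene that 1 class alone carried through the filter, 2 of 4 members and 53.1% of 3234 genes passed, with a median log2 fold change of -0.12 and -0.30. Slc40a1 was 44.5-fold lower in macrophage-like cells and lower in 4 of 4 libraries (log2 fold change -5.48, SE 0.37, edgeR adjusted p 8.3e-08), and -6.52 without Control 2 and -6.21 with gates. Fth1 was lower in 4 of 4 libraries (log2 fold change -1.95, SE 0.33, edgeR adjusted p 2.4e-04), and -0.96 with gates. Blvrb was higher in 4 of 4 (log2 fold change 2.42, SE 0.32, edgeR adjusted p 2.6e-05). Cd163, at 0 UMIs in the neutrophil-like cells of all 4 libraries, has only the lower bound given above. Hmox1 (log2 fold change 0.28, SE 0.47, edgeR adjusted p 0.619) and Ftl1 (log2 fold change -0.53, SE 0.22, edgeR adjusted p 0.0508) did not pass. Without Control 1, Ftl1 passed at -0.87 and Hmox1 was -0.38, the opposite direction. Ftl1 also passed without the highest doublet scores (-0.61) and turned with gates (0.13). Hmox1 passed at 1.09, 1.80 and 0.95 with finer clustering, gates and cells over 3000 genes kept. Spic was not tested, because the low-count filter removed it, and the 4 alternatives that tested it called it higher against 0 UMIs, so only the lower bound given above is used.

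Over all 5711 genes tested, 32.7% passed as higher and 28.3% as lower in macrophage-like than in neutrophil-like cells (median log2 fold change 0.15). Leaving out genes that 1 class alone carried through the filter, 18.1% of those remaining passed as higher and 35.0% as lower, so the balance turned. Of those of heme uptake, transport and breakdown, 1 of 2 was higher and 0 were lower (median log2 fold change 1.35, against -0.30 over all remaining genes). Of those of iron uptake and transport, 0 of 1 was higher and 1 was lower (median -1.81), and of the Nrf2 target genes 1 of 5 was higher and 4 were lower (median -2.17). Of the other lists' genes, those higher and lower (with the list's median) were 2 and 1 of 5 of iron storage and export (0.04), 1 and 1 of 2 of heme synthesis (-0.39) and 0 and 2 of 3 of iron and heme regulation (-1.40). Lcn2, which encodes a protein that binds bacterial iron carriers, passed the filter through neutrophil-like cells alone and differed by -7.67, and Slc7a11 by -5.57. Hfe had 2 UMIs in neutrophil-like cells, and its pooled level in macrophage-like cells was 143 times theirs, with a 95% counting interval of 39.2 to 1182.

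The comparison of the hucMSC-Exosomes group with the control group asked whether the injections changed these genes. No member passed in any of the 4 classes tested. Groups follow the sample titles, and the pairing by the letters of the matrix names was not tested, so these results depend on the titles. In macrophage-like cells 0 of 6 members passed by edgeR, where 0.0324% of 6168 genes did. The 2 genes that passed, named here after their values were seen, were Acod1 (log2 fold change -3.62, SE 0.52, edgeR adjusted p 0.0378) and Inhba (-2.51, SE 0.35, edgeR adjusted p 0.0378), both lower in the hucMSC-Exosomes group. Both calls ended at the finer clustering, with gates, with cells over 3000 genes kept and with doublet calls left out. They also ended with the replicate number as a block, and each of these settings called 0 genes. In the main fit of macrophage-like cells 444 genes had an unadjusted p under 0.05 by edgeR, and DESeq2 called 6. In the Pdpn/Mmp19 cluster 0 of 5 members and 0% of 7043 genes passed by edgeR, with 150 at an unadjusted p under 0.05 and 2 by DESeq2. In monocyte-like cells 0 of 4 members and 0% of 4280 genes passed by edgeR (88 unadjusted, 0 by DESeq2), and in neutrophil-like cells 0 of 5 members and 0% of 3946 genes (47 unadjusted, 0 by DESeq2). Low counts kept Slc40a1 out of the test in macrophage-like cells, Slc40a1 and Cd163 in the Pdpn/Mmp19 cluster, Spic, Slc40a1 and Cd163 in monocyte-like cells, and Spic and Cd163 in neutrophil-like cells. No gene of the 6 lists passed in these 4 tests either. Leaving out Control 1, Control 2, hucMSC-Exo 1 or hucMSC-Exo 2 gave 51, 139, 45 and 66 genes in macrophage-like cells, 7, 117, 9 and 34 in the Pdpn/Mmp19 cluster, 30, 11, 5 and 9 in monocyte-like and 7, 1, 0 and 3 in neutrophil-like cells. With 2 mice a group, these tests can miss moderate changes.

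Hmox1 gave the largest treatment fold changes among the members in the Pdpn/Mmp19 cluster (log2 fold change 1.42, SE 0.65, edgeR adjusted p 1.00) and in neutrophil-like cells (log2 fold change 1.51, SE 0.79, edgeR adjusted p 1.00). It was 0.45 in monocyte-like and -0.30 in macrophage-like cells. In the Pdpn/Mmp19 cluster Control 2 lay close to the hucMSC-Exosomes libraries and Control 1 far below, so the control group spread over most of the range. Without Control 1 the fold changes of Hmox1 were 0.59, 0.71, -0.36 and -0.56 in these classes. Without Control 2, which leaves Control 1 as the only control library, Hmox1 (3.77) and Spic (5.40) passed in the Pdpn/Mmp19 cluster and Hmox1 (2.76) in monocyte-like cells. Without hucMSC-Exo 2, Hmox1 (1.71), Fth1 (0.76) and Ftl1 (0.94) passed in the Pdpn/Mmp19 cluster, and Ftl1 passed (0.63) in the class that took its place when cells over 3000 genes were kept, where hucMSC-Exo 1 was the only library of its group with at least 10 cells. Each of these fits has 1 library in a group, so its spread comes from the other group alone. The members' median log2 fold change was -0.13, 0.56, 0.35 and 0.45 in macrophage-like cells, the Pdpn/Mmp19 cluster, monocyte-like and neutrophil-like cells, against 0.00, 0.01, 0.00 and 0.02 over all genes.

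Ferritin and ferroportin mRNAs are known to carry a short hairpin, the iron-responsive element, through which iron sets their translation. The annotated 5′ UTRs were searched on the coding strand for a loop of CAGTG followed by A, C or T, closed by a stem of 5 base pairs (G-T pairs allowed) with a C before the stem. A match was found in 21 of 20873 genes (0.101%), among them 3 of the 7 members, Fth1, Ftl1 and Slc40a1, and no other gene of the lists. These 3 sequences are shown because they are the only matches among the genes of the lists, and the other genes of iron storage and export had none. The build is GRCm38, and capitals mark the loop. The Fth1 match lies at chr19:9982738-9982754 on the plus strand, bases 93 to 109 of the 5′ UTR, the Ftl1 match at chr7:45459785-45459801 on the minus strand, bases 84 to 100 of the 5′ UTR, and the Slc40a1 match at chr1:45925471-45925487 on the minus strand, bases 96 to 112 of the 5′ UTR.
Fth1: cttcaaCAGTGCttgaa
Ftl1: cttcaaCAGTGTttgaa
Slc40a1: cagctaCAGTGTtagct
A match is a description of the letters, and translation was not measured. By mean mRNA level, Fth1 and Slc40a1 were highest in neutrophil-like cells and Ftl1 in the Pdpn/Mmp19 cluster.

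The genes most like 6 of the members were ranked by Pearson's r of log2(CPM + 10) over 51 sums of a library and a class (14 classes, 5198 genes). These sums share libraries and depth, so r is a description. For Hmox1 they were Ftl1 (0.92), Fnip2 (0.92) and F10 (0.87), and for Ftl1 Hmox1 (0.92), Spi1 (0.91) and Il1b (0.91), each thus standing first in the other's list. For Cd163 they were Ccl12 (0.92), Ccl8 (0.89) and Igf1 (0.86). Fth1 was most like Cstb (0.89), Atp6v0c (0.88) and Plekhm2 (0.85), Slc40a1 like Lcn2 (0.94), Wfdc21 (0.94) and Mirt2 (0.94), and Blvrb like Grn (0.86), Asah1 (0.82) and Pltp (0.82). Slc40a1 and Cd163 had an r of -0.01 with each other.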

How the data were processed

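Deposited matrices of UMI counts, made by the authors with Cell Ranger 6.1.2 on mm10, were read in Python 3.11.15; called cells outside the limits were left out (106, 281, 75 and 69 over the gene limit and 40, 69, 48 and 49 over the mitochondrial limit). Cells were clustered with scanpy 1.11.5 (2000 variable genes, 30 principal components, 15 neighbours, Leiden resolution 1) into 22 clusters. These were named by the detected marker list with the highest score, except a cluster of 188 cells (median 975 UMIs) left unnamed. Its highest score was for keratinocytes (1.57), and C1q genes were among its leading genes. The name Pdpn/Mmp19 cluster was chosen after its values were seen. Counts were summed per library and class with at least 10 cells and tested with edgeR 4.0.16 in R 4.3.3 (TMM, low-count filter, quasi-likelihood, Benjamini-Hochberg 0.05), with DESeq2 1.42.0 as an alternative; SciPy 1.17.1 gave intervals and matplotlib 3.10.9 the figures. Scrublet's automatic threshold marked 35 cells (0.543%), which were kept; since these were few, leaving out the 10% of cells with the highest score was added as an alternative after the data were seen. Genes named are the members, the class markers, the 3 genes most like each member (those for Spic are not reported here), and in each comparison the 5 list genes that passed with the largest fold change; others are said to be chosen after their values were seen. Genes that the 4 libraries of 1 class carried through the low-count filter, and those of the other did not, were left out of some counts, a rule chosen after the values were seen. Members and lists were chosen with earlier results of these data known. Hairpins were searched in 5′ UTRs of GENCODE vM21.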

Additional observations from a re-analysis of the deposited data

How the results depend on the processing

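Of 153 class fold changes of called members under alternatives, 133 kept direction and call, 12 lost the call and 8 reversed. Among the 153, Cd163 gave 12, 11 and 12 and Slc40a1 gave 12. Both passed the filter through 1 class alone, which favours a difference, so these rows are no measure of stability. Of 60 for members not called, 44 stayed so, 7 gained the call, 8 moved without a call and 1, Blvrb, reversed with a call. Turns of direction without a call, as for Hmox1 and Ftl1 above, were not counted as reversed among the 60. Called under every alternative that tested them were Fth1 and Blvrb against neutrophil-like cells. So were Cd163 in all 3 class comparisons and Slc40a1 against neutrophil-like cells. These 2 genes met the low-count filter through 1 class alone, which favours a difference, so their calls are no measure of stability. Cd163 was at 0 UMIs in neutrophil-like cells. Of 140 member levels, 34 were counted as moved, none of them in neutrophil-like cells or with automatic doublet calls left out. Low levels shifted without being counted. Without those calls the Slc40a1 mean went from 4.42 to 2.35 CPM in the Pdpn/Mmp19 cluster and from 2.30 to 3.49 CPM in monocyte-like cells. The means of Hmox1 and Spic in monocyte-like cells moved with gates, with cells over 3000 genes and without the highest scores. With cells over 3000 genes kept, Spic reversed against monocyte-like cells (-0.10), and Hmox1 (2.49), Spic (2.87), Fth1 (1.91), Ftl1 (0.44) and Blvrb (1.72) against the Pdpn/Mmp19 cluster; with gates Hmox1 (0.77), Spic (2.60) and Fth1 (0.75) reversed there. The first put other cells in that class, and gates put cells of that cluster on both sides and left 2 libraries; the causes were not tested. Macrophage-like genes called for treatment were 6 by DESeq2, 83 without the low-count filter, 0 at resolution 1.6, 0 with gates, 0 with cells over 3000 genes, 0 without Scrublet calls, 9 without the highest scores and 45 to 139 with a library left out. In the Pdpn/Mmp19 cluster they were 2 by DESeq2, 8 without the filter, 9 with cells over 3000 genes (other cells, and hucMSC-Exo 1 as the only library of its group) and 7 to 117 with a library left out; gates left under 10 cells in Control 1 and hucMSC-Exo 2 and were not run. Monocyte-like cells gave 17 without the filter and 5 to 30 with a library left out, and neutrophil-like cells 4 and 0 to 7. The causes were not tested. With a library left out, macrophage-like cells differed in 1029 to 1842 genes from monocyte-like cells, 947 to 2024 from the Pdpn/Mmp19 cluster (506 with gates, 3690 with cells over 3000 genes) and 2377 to 3708 from neutrophil-like cells. A replicate block gave 0, 0, 0 and 0 treatment calls in the 4 classes. The sample titles give same-number libraries only a number in common. Within these classes, deviations of Control 1 and hucMSC-Exo 1 from their group means correlated over genes at 0.0134, -0.00465, 0.0708 and -0.00537. These correlations do not cover cell numbers. Neutrophil-like cells were few in both replicate 1 libraries (56 and 93) and many in both replicate 2 libraries (347 and 542). Depth limits Spic, Cd163 and Slc40a1, which rest on few UMIs in several classes.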
